A study of Mus musculus with 6 samples.

Results

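Podocyte genes were examined in whole kidneys of mice that overexpress adiponectin in the renal tubule. The 8 genes, chosen by symbol, were Nphs1, Podxl, Wt1, Synpo, Ptpro, Cdkn1c, Nes and Magi2. Each matched 1 of the 54532 gene rows of the deposited table through its Ensembl identifier, and all 8 were among the 16017 genes that passed the filter on low counts and were tested. RNA was measured in 6 libraries of whole kidney from male mice on a C57BL/6 background, 3 from KsprtTA mice (Control) and 3 from KsprtTA/TRE-Adiponectin mice (KSPAPN). All groups carried KsprtTA, a doxycycline-responsive activator driven by the promoter of kidney-specific cadherin, which is active in tubule epithelium and is not described as active in podocytes. Only KSPAPN mice also carried the responsive adiponectin gene, although the sample labels call the Control genotype WT. Both groups ate chow with doxycycline at 600 mg/kg for 4 days, each library pooled 3 mice, and the animals' ages were not given.

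Podocytes are the epithelial cells that cover the glomerular capillaries, and their interlocking foot processes are bridged by the slit diaphragm, the last layer of the filtration barrier. Nephrin, encoded by Nphs1, spans the slit diaphragm, and Synpo encodes an actin-binding protein of the foot process. Podocytes are a small share of kidney cells, so their transcripts are diluted in RNA from a whole kidney. Several of the 8 genes are not restricted to them, since Podxl and Nes are also known from endothelium and Wt1 from parietal epithelial cells.

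Libraries held between 17183358 and 20871173 counts. Adipoq, the overexpressed gene, had 2, 0 and 2 reads in Control and 24629, 17483 and 26811 reads in KSPAPN. Although the extraction note names liver, kidney transcripts were abundant, with Umod at 677.5 ± 52.6 FPKM (fragments per kilobase of transcript, scaled to library size by the authors, SD, n = 3) in Control. Of 4 genes listed as hepatocyte markers, Alb lay between 0.275 and 4.46 FPKM over the 6 libraries, and Apoa1 and Fgb were below 1 FPKM. The exception was Ttr, at 128.1, 145.5 and 69.6 FPKM in Control and 50.3, 63.4 and 38.3 FPKM in KSPAPN, which fell (log2 fold change -1.17, adjusted p = 0.0388, edgeR). Of all genes tested, 424 were called at an adjusted p under 0.05 (2.65%; edgeR quasi-likelihood test, Benjamini-Hochberg adjustment), 63 of them higher and 361 lower in KSPAPN.

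None of the 8 podocyte genes was called in KSPAPN against Control. Their log2 fold changes were all above 0, from 0.051 for Magi2 to 0.52 for Ptpro, and their adjusted p-values ran from 0.277 to 0.921. Control replicate 2 had the lowest level of all 6 libraries for each of the 8 genes, and the groups' values overlapped for every gene except Ptpro. In RNA from whole kidney, fewer podocytes and less RNA per podocyte cannot be told apart.

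The starts of these genes were looked up because their levels moved together from library to library. Of the 7 genes looked up in RefSeq's table of starts (GRCm38.p6), 4 matched, Nphs1, Ptpro, Nes and Magi2, the last with 2 starts. Podxl, Wt1 and Cdkn1c were not matched, and Synpo was not looked up. The 250 bases before the start are given 5′ to 3′ for 3 genes, because they contrast the gene with the largest difference, the gene with the next smallest p-value and the gene with the smallest difference. Their positions are chr6:137252049-137252298 for Ptpro, chr3:87970843-87971092 for Nes and chr5:19226796-19227045 for the first start of Magi2, all on the plus strand. Capitals mark matches to motifs of podocyte transcription factors, either an E-box (CANNTG, the site class of TCF21) or GCGNGGGNG (WT1).
Ptpro: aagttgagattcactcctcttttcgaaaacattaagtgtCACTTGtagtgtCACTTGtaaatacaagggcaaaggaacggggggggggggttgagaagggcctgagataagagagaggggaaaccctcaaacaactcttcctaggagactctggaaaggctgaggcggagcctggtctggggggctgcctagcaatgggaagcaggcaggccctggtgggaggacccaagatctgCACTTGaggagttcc
Nes: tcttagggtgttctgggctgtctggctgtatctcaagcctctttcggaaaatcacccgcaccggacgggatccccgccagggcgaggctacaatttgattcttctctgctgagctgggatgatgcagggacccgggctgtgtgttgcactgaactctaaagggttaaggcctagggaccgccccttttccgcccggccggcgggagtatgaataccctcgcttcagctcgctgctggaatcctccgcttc
Magi2: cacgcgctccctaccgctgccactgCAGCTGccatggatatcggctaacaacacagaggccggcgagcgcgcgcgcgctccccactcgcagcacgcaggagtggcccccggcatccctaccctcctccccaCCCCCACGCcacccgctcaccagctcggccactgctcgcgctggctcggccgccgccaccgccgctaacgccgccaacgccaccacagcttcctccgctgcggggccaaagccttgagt
The Ptpro window held 3 E-boxes with the same letters, beginning 211, 199 and 15 bases before the start. The Magi2 window held 1 E-box, 225 bases before the start, and 1 WT1 match on the reverse strand, 119 bases before it. Neither the Nes window nor that of Nphs1 held a match to these motifs or to TAATTA (LMX1B). The Nphs1 window, chr7:30459808-30460057, lies inside the annotated span of the gene, which begins at 30458315. The bases before that position were not searched. The Nes window and the first Magi2 window end shortly inside the annotated spans of their genes, which begin at 87971078 and 19227036. The second Magi2 start had 1 TAATTA match and 1 E-box. Over 32851 windows of the same length, searched on both strands, 66.2% held an E-box, 10.5% the WT1 motif and 4.84% TAATTA. The motifs do not overlap one another in the windows shown. Base composition differed among these windows, with 53.6% GC for Ptpro, 58.8% for Nes and 72.0% for Magi2, beside a median of 52.4% over all windows. These matches describe letters only, and binding was not measured.

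The slit diaphragm genes were considered first. Nphs1 (ENSMUSG00000006649, chr7:30458315-30487223) had 2.93, 1.68 and 3.70 FPKM in Control replicates 1, 2 and 3, and 2.87, 2.11 and 3.70 FPKM in KSPAPN replicates 1, 2 and 3. The lowest and the joint highest value were both in Control, so the KSPAPN values lay inside the Control range. The means were 2.77 ± 1.02 and 2.89 ± 0.794 FPKM (SD, n = 3), a log2 fold change of 0.070 (SE 0.27, adjusted p = 0.919, edgeR), with a 95% interval from -0.54 to 0.68. Exons of Nphs1 share bases with an antisense transcript, Nphs1os, and with a pseudogene on the opposite strand, which had at most 5 and 8 reads in a library.

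Magi2 (ENSMUSG00000040003, chr5:19227036-20704792) encodes a scaffold protein that binds nephrin. It had 0.808, 0.589 and 0.928 FPKM in the Control libraries and 0.723, 0.742 and 0.936 FPKM in the KSPAPN libraries, from 116 to 220 reads. The groups overlapped almost completely, with a log2 fold change of 0.051 (SE 0.20, adjusted p = 0.921, edgeR) and a 95% interval from -0.40 to 0.50. Magi2 had the lowest mean level of the 8 genes, and a noncoding transcript that shares exon bases with it had at most 3 reads in a library.

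Podxl (ENSMUSG00000025608, chr6:31519488-31563981) encodes podocalyxin, the sialylated surface protein that keeps foot processes apart. Its level was 31.4, 23.0 and 33.2 FPKM in Control and 30.4, 31.0 and 42.0 FPKM in KSPAPN. Only KSPAPN replicate 3 exceeded the highest Control library. The log2 fold change was 0.24 (SE 0.16, adjusted p = 0.446, edgeR), with a 95% interval from -0.11 to 0.60.

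Ptpro (ENSMUSG00000030223, chr6:137252319-137463233) encodes a receptor-type tyrosine phosphatase of the podocyte surface, also called GLEPP1. Its level was 1.63, 0.875 and 1.75 FPKM in Control and 1.79, 1.99 and 2.30 FPKM in KSPAPN. It was the single gene of the 8 whose groups did not overlap, with KSPAPN replicate 1 just above Control replicate 3. Among all genes tested, 10.8% were higher in every KSPAPN library than in any Control library, and 1 of 8 is near that share. The means were 1.42 ± 0.475 and 2.02 ± 0.256 FPKM (SD, n = 3), and the log2 fold change was 0.52 (SE 0.24, adjusted p = 0.277, edgeR), with a 95% interval from -0.0094 to 1.04. The two-sided exact permutation test of the FPKM gave p = 0.1, the smallest that 3 against 3 libraries allow.

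The cytoskeletal genes followed. Synpo (ENSMUSG00000043079, on chromosome 18), which encodes synaptopodin, had 5.17, 3.47 and 5.74 FPKM in Control and 5.16, 4.17 and 6.42 FPKM in KSPAPN. Replicate 2 was the lowest library in each group and replicate 3 the highest. The log2 fold change was 0.14 (SE 0.19, adjusted p = 0.751, edgeR), with a 95% interval from -0.29 to 0.57.

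Nes (ENSMUSG00000004891, chr3:87971078-87980451) encodes nestin, an intermediate filament protein. It had 4.75, 3.62 and 4.83 FPKM in Control and 4.73, 5.37 and 5.91 FPKM in KSPAPN. KSPAPN replicate 1 lay between the Control values, and the other KSPAPN libraries lay above them. The log2 fold change was 0.28 (SE 0.14, adjusted p = 0.299, edgeR), with a 95% interval from -0.019 to 0.58.

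The remaining genes act in the nucleus. Wt1 (ENSMUSG00000016458, chr2:105126529-105173616) encodes a zinc-finger transcription factor that maintains podocyte identity. It had 1.42, 0.847 and 1.95 FPKM in Control and 1.44, 1.33 and 2.73 FPKM in KSPAPN. Only KSPAPN replicate 3 was above the Control range, and the interval of the log2 fold change of 0.39 (SE 0.33, adjusted p = 0.573, edgeR) was the widest of the 8, from -0.34 to 1.12.

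Cdkn1c (ENSMUSG00000037664, chr7:143458339-143461050) encodes p57, an imprinted inhibitor of cyclin-dependent kinases that marks mature podocytes outside the cell cycle. It had 7.41, 4.55 and 8.40 FPKM in Control and 7.60, 6.57 and 7.48 FPKM in KSPAPN. All KSPAPN values fell within the Control range. The log2 fold change was 0.095 (SE 0.21, adjusted p = 0.847, edgeR), with a 95% interval from -0.37 to 0.56. An antisense transcript overlaps its exons and had at most 3 reads in a library.

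**Figure D1:**
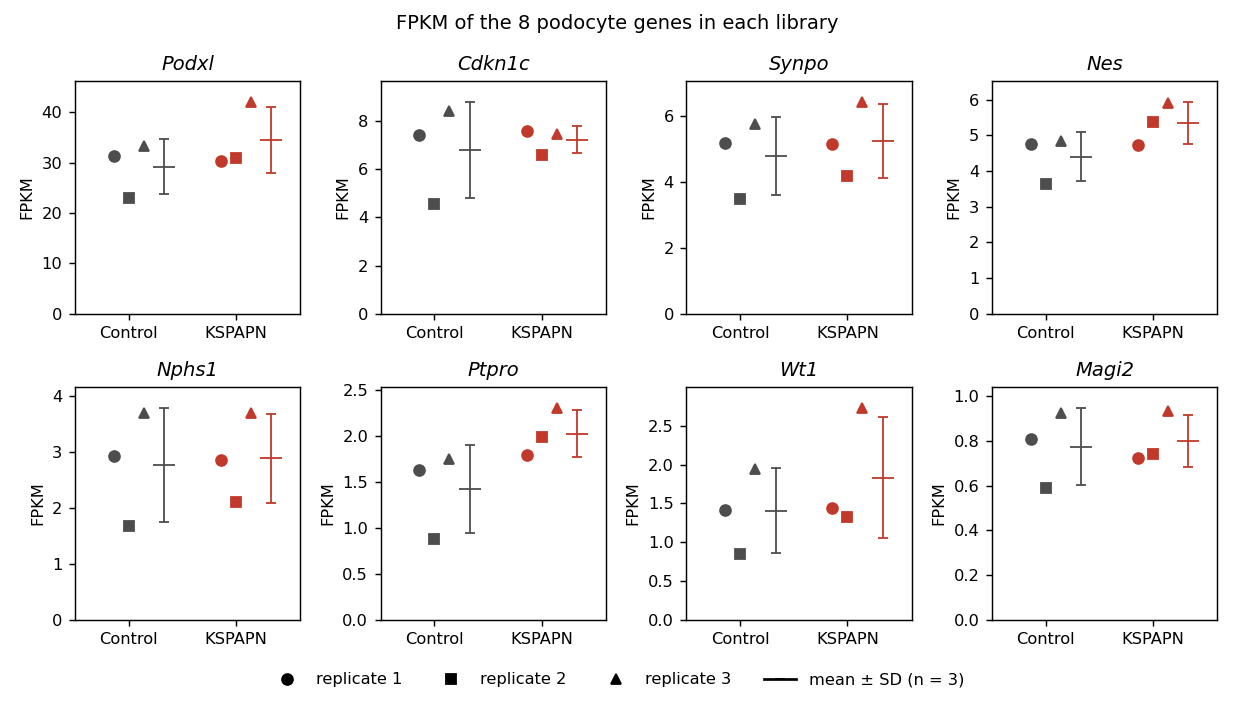
FPKM (vertical axis, from 0) of each podocyte gene in the 3 Control (grey) and 3 KSPAPN (red) libraries, with the replicate number as the symbol and bars for mean ± SD (n = 3). Control replicate 2 (grey square) is the lowest point in all 8 panels, and the groups are separate only for Ptpro.

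By FPKM, a level per length, the Control means placed Podxl first at 29.2 ± 5.44 (SD, n = 3), followed by Cdkn1c, Synpo, Nes, Nphs1, Ptpro, Wt1 and Magi2 at 0.775 ± 0.172. Podxl was 37.7 times Magi2 in Control and 43.1 times in KSPAPN by group mean. Each gene stood above the next in all 6 libraries except for 2 neighbouring pairs. Synpo exceeded Nes in 4 of 6 libraries, and Ptpro exceeded Wt1 in 4 of 6. Control ranges of neighbours overlapped for every pair except Podxl and Cdkn1c.

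Read against all genes, the count of 8 of 8 podocyte genes above 0 compares with 51.9% of all genes tested. Of other glomerular lists, 5 of 5 mesangial genes (median 0.14) and 7 of 8 endothelial and vascular genes (median 0.12) were above 0. Nearer the share of all genes were 4 of 7 basement membrane genes (median 0.0097) and 14 of 23 other podocyte genes (median 0.058). Of the parietal epithelial genes, 2 of 3 were above 0. The 8 podocyte genes shared their libraries' deviations, so they are not separate observations. At an unadjusted p under 0.05, the main edgeR fit passed 0 of the 8, beside 18.7% of all genes tested. DESeq2 passed 0 at an adjusted p under 0.05, beside 5.74% of all genes, and 1 at an unadjusted p under 0.05, Ptpro (unadjusted p = 0.0311, from the model fitted across all genes), beside 17.1%. The median log2 fold change of the 8 was 0.19, beside 0.012 for all genes tested.

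That median rested on 2 libraries. Without Control replicate 2 it was 0.024, and without KSPAPN replicate 3 it was 0.029. The log2 fold changes of Nphs1, Synpo and Magi2 were below 0 with either of these libraries left out, that of Cdkn1c without Control replicate 2, and that of Wt1 without KSPAPN replicate 3. Those of Podxl, Ptpro and Nes stayed above 0 with any 1 library left out. With a trend on GC content and transcript length removed, the median was 0.29, beside 0.043 for all genes.

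**Figure D2:**
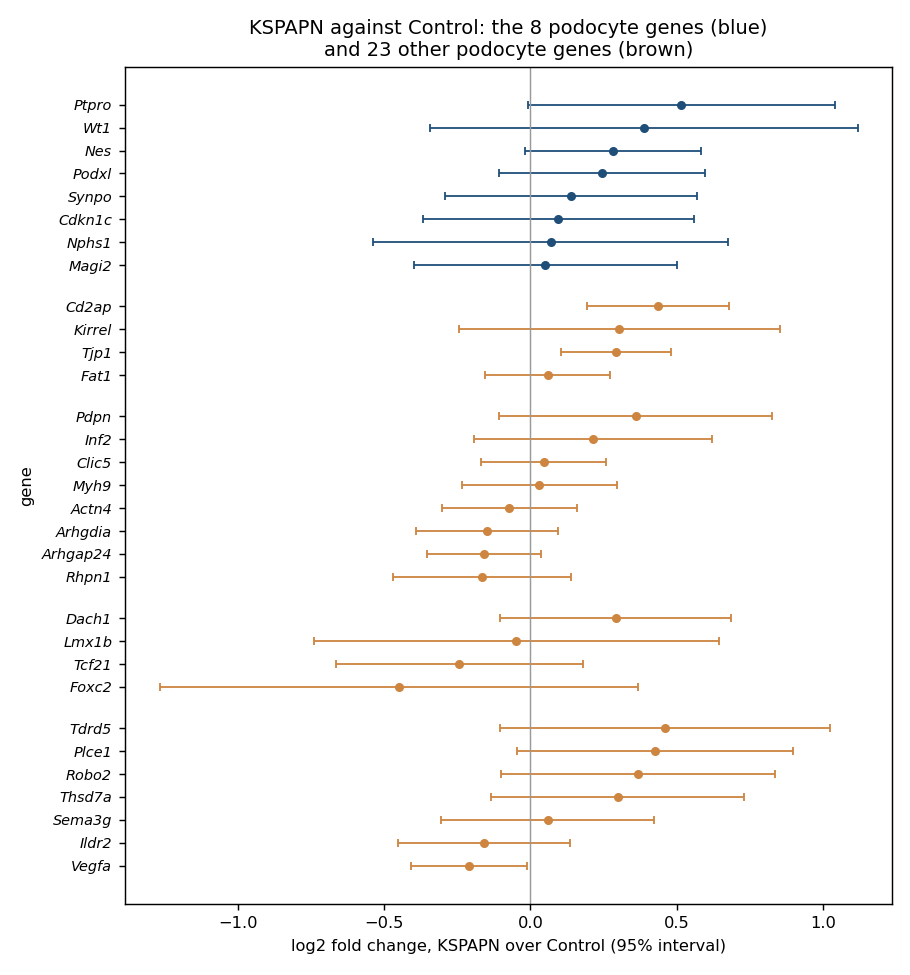
Log2 fold change of KSPAPN over Control (horizontal axis, points, with 95% intervals from edgeR) for the 8 podocyte genes in blue and 23 other podocyte genes in brown, grouped by role. All 8 blue intervals include 0, and of the brown ones those of Cd2ap and Tjp1 lie above 0 and that of Vegfa below 0 before adjustment.

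The larger pattern was between libraries of the same genotype. On the log2 CPM scale (counts scaled to library size with TMM factors), the median of the 8 genes' deviations from their own means over the 6 libraries was 0.023, -0.55 and 0.24 in Control replicates 1, 2 and 3. In KSPAPN replicates 1, 2 and 3 it was 0.042, -0.078 and 0.40. Control replicate 2 was lowest for 8 of 8 genes, beside 16.0% of all genes tested, and KSPAPN replicate 3 was highest for 6 of 8, beside 17.0%. The exceptions to the latter were Nphs1 and Cdkn1c, which were highest in Control replicate 3 on this scale. Within Control, replicate 3 was the highest for all 8 genes. The group difference of the median deviation, 0.22, was smaller than its pooled SD between libraries, 0.34.

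The deviation was not the same size for every gene. In Control replicate 2 it was -0.91 for Ptpro, -0.83 for Wt1 and -0.69 for Nphs1, and -0.40 for Magi2, -0.41 for Nes and -0.45 for Podxl. Wt1 also had the largest deviation in KSPAPN replicate 3, 0.84, where Cdkn1c had the smallest, 0.12. The coefficient of variation of the FPKM within Control was 39.2% for Wt1, 36.7% for Nphs1 and 33.5% for Ptpro, and 15.4% for Nes. Counting alone would give 8.02% for Wt1, 5.53% for Nphs1, 7.66% for Ptpro and 4.45% for Nes at their mean Control counts. For every one of these 4 genes the spread between pools was thus larger than counting error.

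**Figure D3:**
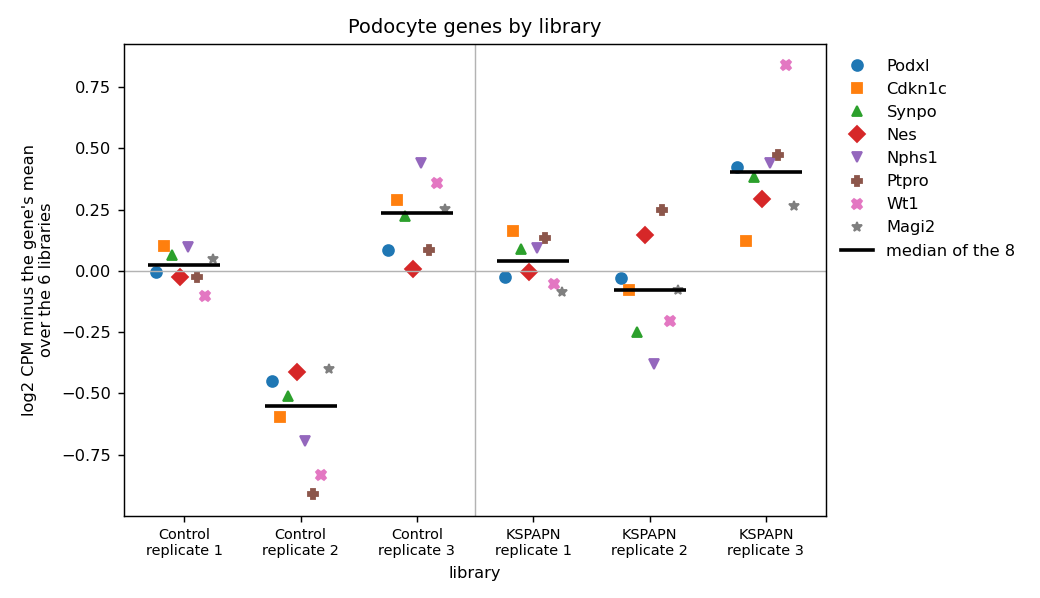
Log2 CPM of each podocyte gene minus its mean over the 6 libraries (vertical axis) by library (horizontal axis), with a black bar for the median of the 8 genes. All 8 symbols lie below 0 in Control replicate 2 and above 0 in KSPAPN replicate 3.

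This spread was shared in large part by the genes. Within groups, the SD of Nphs1 was 0.50 on the log2 CPM scale, and 0.21 after the mean of the other 7 genes was subtracted in each library. For Synpo it went from 0.35 to 0.098, and for Magi2 from 0.27 to 0.10. The within-group SD was smaller after this subtraction for 7 of the 8 genes. The exception was Nes, at 0.20 before and 0.22 after. Relative to the other 7 genes, Ptpro was 0.37 higher in KSPAPN than in Control on the log2 scale, while Magi2 had a relative difference of -0.20. The relative differences of the other genes lay between -0.16 for Nphs1 and 0.16 for Wt1. The exact permutation p of the relative difference was 0.1 for Ptpro and for Magi2, the smallest this design allows. It was 0.3 or more for each of the other genes.

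The share of all counts taken by the 8 genes was 0.0321%, 0.0214% and 0.0352% in the Control libraries. In the KSPAPN libraries it was 0.0346%, 0.0304% and 0.0431%. The low value of Control replicate 2 came from 3829 reads and the high value of KSPAPN replicate 3 from 8544 reads. Podxl alone held 2190 and 4777 of these reads, so the share mostly follows that gene. Control replicates 1 and 3 bracketed KSPAPN replicate 1.

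A list of 24 other podocyte genes was then examined, of which 23 were tested and Trpc6, a cation channel, was too low, at 0.0444 FPKM in Control. None was called with edgeR, and 14 log2 fold changes were above 0 and 9 below 0, with a median of 0.058. At an unadjusted p under 0.05, 2 were higher and 1 lower in KSPAPN. DESeq2 called 1, Cd2ap (adjusted p = 0.0147). By role, 4 of 4 slit diaphragm and junction genes tested were above 0, as were 4 of 8 cytoskeletal, 1 of 4 transcription factor and 5 of 7 signalling genes.

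Cd2ap, an adaptor that links nephrin to actin and is also made in tubule cells, was at 8.03 ± 0.933 FPKM in Control and 10.8 ± 0.943 FPKM in KSPAPN (SD, n = 3), a log2 fold change of 0.44 (SE 0.11, adjusted p = 0.0656, edgeR). Unlike the 8 genes, Cd2ap was lowest in Control replicate 1, at 6.96 FPKM. Tjp1, the junction protein ZO-1, had a log2 fold change of 0.29 (SE 0.085, adjusted p = 0.102, edgeR).

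Vegfa, the growth factor by which podocytes maintain glomerular endothelium and which tubule cells also make, was at 66.0 ± 3.0 FPKM in Control and 56.8 ± 3.70 FPKM in KSPAPN (SD, n = 3), with an adjusted p of 0.242 (edgeR). Foxc2, a transcription factor, had the lowest log2 fold change among these genes, -0.45 (SE 0.37, adjusted p = 0.557, edgeR). Of 7 genes of the glomerular basement membrane, 4 were above 0 and 3 below 0 and none was called, Npnt being at 0.28 (adjusted p = 0.183) and Agrn at -0.25 (adjusted p = 0.248), both by edgeR.

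Markers of the neighbouring cells varied with the podocyte genes in part. The median deviation of 8 glomerular endothelial and vascular genes was 0.13, -0.24 and -0.060 in Control and 0.12, -0.13 and 0.21 in KSPAPN, and that of 5 mesangial genes 0.040, -0.32 and -0.039 in Control and 0.15, -0.25 and 0.32 in KSPAPN. The medians of both lists were lowest in Control replicate 2 and highest in KSPAPN replicate 3, but single genes varied, as Control replicate 2 was the lowest library for 5 of 8 endothelial and 1 of 5 mesangial genes. The median of 3 parietal epithelial genes took other values, 0.23, -0.048 and -0.022 in Control and -0.15, -0.23 and -0.088 in KSPAPN. Here too single genes varied. Of the 3, 1 (Akap12) was lowest in Control replicate 2, at -0.42, and highest in KSPAPN replicate 3, at 0.53. The 23 other podocyte genes tested had -0.17 in Control replicate 2 and 0.13 in KSPAPN replicate 3, a narrower range than the 8. Some of the 23 had Control means above any of the 8, such as Arhgdia at 123.1 FPKM and Actn4 at 55.8 FPKM. How much of the RNA of the 23 came from podocytes was not measured. None of the endothelial, mesangial or parietal epithelial genes was called with edgeR, whereas DESeq2 called Plat (adjusted p = 0.0303) among the endothelial genes and Cldn1 (adjusted p = 0.0421) among the parietal ones.

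Proximal tubule genes took another course, with median deviations of 0.22, 0.22 and -0.013 in Control and -0.28, -0.053 and -0.057 in KSPAPN. Of 12 such genes, 11 had log2 fold changes below 0 and 2 fell, the organic anion transporter Slc22a6 with a log2 fold change of -0.46 (adjusted p = 0.0388, edgeR) and the amino acid transporter Slc7a13 with a log2 fold change of -1.46 (adjusted p = 0.0259, edgeR). DESeq2 called 3 of them lower, Slc13a3 being the additional one (adjusted p = 0.00276). Control replicate 2, low for the podocyte genes, shared the highest proximal tubule value with Control replicate 1. Of 10 genes of the loop, distal nephron and collecting duct, 1 rose, the cotransporter Slc12a1 (log2 fold change 0.52, adjusted p = 0.0437, edgeR), and at an unadjusted p under 0.05 another 3 were lower. DESeq2 called Slc12a1 higher and the anion exchanger Slc4a1 lower (log2 fold change -0.70, adjusted p = 0.0156). Mitochondrially encoded genes took 9.32% of counts in Control replicate 2 and 10.8% in KSPAPN replicate 3, within the range of 7.69% to 12.3% over the 6 libraries. The part of tissue composition or sampling in the podocyte values was not tested.

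With the trend on GC content and length removed, the median deviation of the 8 genes was still -0.51 in Control replicate 2 and 0.45 in KSPAPN replicate 3, the lowest and highest of the 6 libraries. Transcript GC content of the 8 genes lay between 50.2% for Ptpro and 59.4% for Cdkn1c. In Control replicate 3 the value moved from 0.24 to 0.17.

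**Figure D4:**
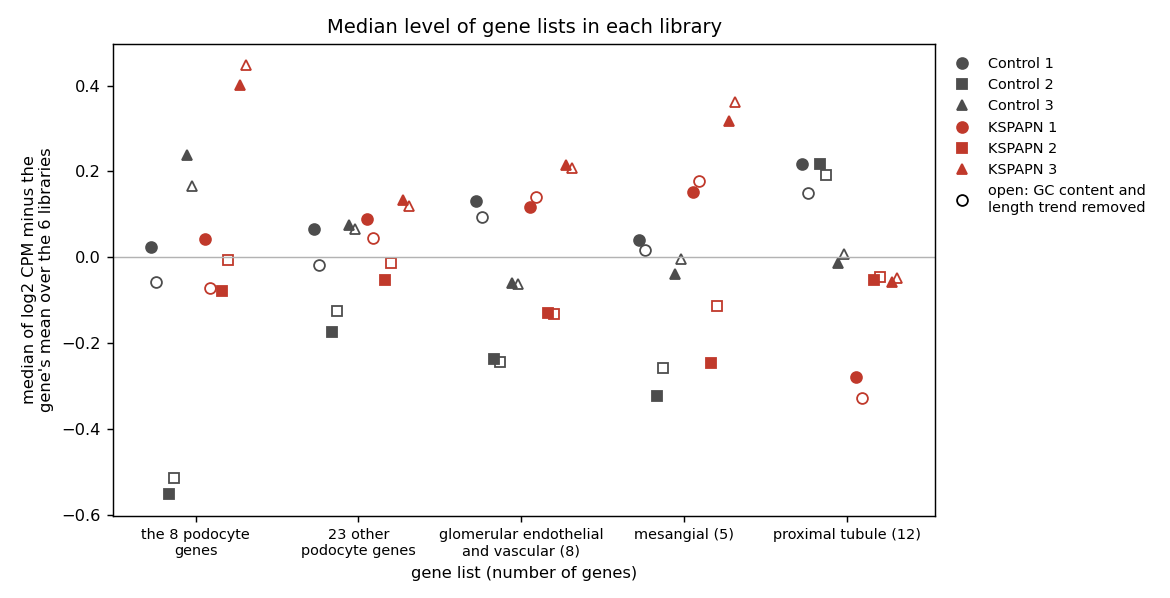
Median of log2 CPM minus each gene's mean over the 6 libraries (vertical axis) for 5 gene lists (horizontal axis), by library, with filled symbols for TMM scaling and open symbols after removal of a trend on GC content and transcript length. Among these 5 lists the 8 podocyte genes have the widest range, from -0.55 in Control replicate 2 to 0.40 in KSPAPN replicate 3 with TMM scaling. The medians of 4 hepatocyte and 2 adipocyte genes, not shown, ranged more widely.

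The genes most like the podocyte genes were ranked by Pearson r with the mean standardised profile of the 8 genes over the 6 libraries. Among 11155 protein-coding genes with a mean of at least 1 FPKM, the leading 5 were Cry2, a repressor of the circadian clock (r = 0.995), Sv2a, a vesicle glycoprotein (0.994), Fn1, fibronectin (0.989), Sipa1l2 (0.986) and the secreted Wnt inhibitor Sfrp1 (0.984). Fn1 had 2.28, 0.997 and 2.70 FPKM in Control and 2.57, 1.98 and 3.92 FPKM in KSPAPN, with the same lowest and highest libraries as the podocyte genes. The 6 points share each library's depth and scaling. Of all candidates, 95 had an r of at least 0.9, and the median r was -0.071. Of the podocyte genes not used for the profile, Fat1 had an r of 0.895 (rank 103), Inf2 0.890 and Kirrel 0.884. In contrast, Cd2ap had 0.330 and Vegfa 0.0051, and the lowest were Arhgdia at -0.209 and Arhgap24 at -0.348. These correlations are descriptions across 6 libraries and were not tested.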

How the data were processed

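RNA from whole kidneys was enriched with oligo(dT) and sequenced in 6 libraries, each a pool of 3 mice. The authors deposited raw counts per gene and FPKM side by side for each library. The submitters' processing notes name STAR 2.5, TopHat, HTSeq 0.6.1, DESeq2 and edgeR without saying what each was used for. Which build, annotation and strand setting were used is not given in the sources used here, so reads of overlapping antisense genes cannot be told apart. Columns were assigned to libraries by their names.

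Ensembl identifiers were matched to GENCODE M21 (GRCm38), which held 54495 of them and lacked 37. Gene coordinates are from that annotation, and promoter windows are RefSeq's. The genes and gene lists were chosen with earlier results of these data known. Named genes were the 8, Adipoq, any other podocyte or basement membrane gene listed, and the 5 genes most like the 8. From the remaining lists, genes with an unadjusted p under 0.05 or among the 2 of highest FPKM were named. Apoa1 and Fgb, the other hepatocyte genes listed, were named outside this rule. Some listed items are not reported here.

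The deposited counts were tested with edgeR 4.0.16 in R 4.3.3, with TMM scaling. Low genes were removed by filterByExpr at a minimum count of 10 and a minimum total of 15. The quasi-likelihood test was two-sided, and p-values were adjusted over 16017 genes (Benjamini-Hochberg), which held 99.8% or more of each library's counts. Deposited FPKM are printed as levels and were compared by exact permutation over 20 arrangements. Log2 CPM used a prior count of 2. The GC content and length trend was fitted per library with splines of 5 degrees of freedom. DESeq2 1.42.0, limma 3.58.1 on log2(FPKM + 1) and log2(FPKM + 0.1), other scalings, no filter, a replicate block and leaving out each library were alternatives. The scripts were tested on simulated counts. Reads carried no molecular identifiers, so counting errors cover counting only, and p-values measure the spread between pools. Deviations of equally numbered libraries correlated at 0.054, 0.15 and 0.17, and the numbers were not treated as pairs.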

Additional observations from a re-analysis of the deposited data

How the results depend on the processing

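None of the 8 podocyte genes was called under any of 16 alternatives, DESeq2, limma on FPKM, other scalings and each left-out library included. Their median log2 fold change lay between 0.17 and 0.29 when all libraries were kept, and between 0.024 and 0.34 with 1 left out. Of 128 single-gene values under alternatives, 120 kept their direction and side of the threshold and 8 changed sign, all with Control replicate 2 or KSPAPN replicate 3 left out. Over the left-out libraries Nphs1 ran from -0.19 to 0.33, Wt1 from -0.014 to 0.70, Synpo from -0.050 to 0.29, Cdkn1c from -0.13 to 0.28 and Magi2 from -0.11 to 0.20 (log2 fold change). The count of 424 called genes of the whole table was 920 with DESeq2, 266 with total counts only, 119 and 128 with limma on log2(FPKM + 0.1) and log2(FPKM + 1), 1339 without a filter, and 39 to 733 with 1 library left out. The cause was not tested. With the replicate number as a block it was 929 and the podocyte median 0.20, and with the block and the GC content and length trend removed together 682 and 0.29, with 0 podocyte genes called in both. Unadjusted p-values (edgeR) with the block were 0.037 for Podxl, 0.045 for Wt1, 0.024 for Ptpro and 0.039 for Nes. Without a filter these genes had 0.026, 0.045, 0.0053 and 0.037. With the block and trend removal together, Synpo was also under 0.05, at 0.040. Nphs1, Cdkn1c and Magi2 stayed above 0.05 in each of these fits. The share of all genes under 0.05 unadjusted was not counted for them. Each library correlated best with its own number. With 3 pools per group, the 95% intervals still held log2 fold changes of up to 0.50 for Magi2 and 1.12 for Wt1.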
